A study of Mus musculus with 33 samples.

Results

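The keratin-associated proteins, encoded in the mouse by the Krtap genes, were followed through 2 cycles of hair growth in dorsal skin. Members were all probe sets of the Affymetrix whole-genome mouse array whose single gene symbol starts with Krtap, with the probe set of highest mean log2 signal over the arrays taken for each gene. This gave 38 genes (43 probe sets) of the 18193 genes that had a probe set with a single symbol. They belong to 22 numbered subfamilies, of which 17 held 1 gene, while subfamily 19 held 6 genes, subfamilies 4 and 5 held 5 genes each, subfamily 6 held 3 and subfamily 13 held 2. A filter on low values kept 37 of the 38, those whose signal exceeded the array's own median on 3 or more arrays. The remaining gene, Krtap13, had signals between 4.4 and 98.2 over all arrays and was not tested.

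Keratin-associated proteins form the matrix in which the keratin filaments of the hair shaft are embedded and cross-linked by disulfide bonds. They are small proteins that fall into a high glycine-tyrosine class (here subfamilies 6, 7, 8, 16, 19, 21 and 22, with 14 genes), a high sulfur class (subfamilies 1, 3, 10, 11, 12, 13, 14, 15 and 26, with 10 genes, 9 of them kept) and an ultra-high sulfur class (subfamilies 4, 5, 9 and 17, with 12 genes), and subfamilies 28 and 31, with 1 gene each, were not classed. In human follicles members of the subfamilies numbered 5, 10, 12, 17 and 26 are found in the cuticle of the hair shaft, and most others in its cortex. The genes are expressed by keratinocytes that have left the dividing hair matrix and build the shaft above it, which takes place in anagen, the growth phase. Catagen is the phase in which the lower follicle regresses, and telogen the phase of rest.

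The skin came from the upper-mid back of C57BL/6 wild-type mice, with 1 mouse per array. In the depilation cycle, hair of female mice aged 7 weeks, whose follicles were all in telogen, was removed with a mixture of wax and rosin, and skin was taken 3 days later (D3, early anagen), at D5 (mid anagen), at D8 and D12 (late anagen) and at D17 (early catagen), with 2 arrays per time point. In the natural cycle, the second after birth, untreated mice of both sexes were taken at postnatal days P23 and P25 (early anagen, 2 arrays each), P27 (mid anagen, 3), P29 (late anagen, 3), P34 (late anagen, 1), P37 and P39 (early catagen, 3 each), P41 (mid catagen, 3) and P44 (telogen, 3). P34 was shown but not tested. The phases are those of the design text, while the labels of the depilation samples and of P41 and P44 name early anagen. The mice were depilated as adults and the natural cycle ran in younger mice, so that depilation and age cannot be told apart between the cycles. The depilated mice were all female, and the natural cycle had both sexes. The labels call the arrays biological replicates.

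The values are linear MAS5 signals, and differences below are between means of log2 values with a floor of 34.6, the 25th percentile over all probe sets and arrays, to which lower signals were raised. Where an array lay under the floor a difference is given as a bound, as "at least" or "or lower". Medians and ranges over genes include such bounds at their stated values. Bounds made up 18 of 37 differences in mid against early anagen, 27 in D8 and D12 against D5, and 27 in D5 against P27. With arrays under the floor on both sides a difference is not even a bound. This held for 22 of 37 in D5 against D3, where only 6 had no array under the floor. In the growth change between the cycles these counts were 15 and 8, and in early anagen against telogen 7 and 17. Medians there take in such values as computed. Array medians lay between 111.2 and 142.5, and log2 values of replicate arrays correlated with r from 0.943 to 0.980. In whole skin fewer cells of a type and less RNA per cell cannot be told apart. The labelled phases were set against markers of the cell types concerned. The summed signal of 12 hair shaft keratins was 174992 and 194616 at D12 against 992.5 and 1265 at D3, and lay between 1392 and 3507 at P44 against 211396 to 254813 at P29. The sum of 8 genes of dividing cells was 18953 to 24859 at P25 and 1836 to 2493 at P44. Arrays of 2 time points stood apart from their replicates in the Krtap genes. P27 replicate 3, from a female where the other P27 mice were males, had Krtap signals at 1.9% (Krtap31-1) to 42.5% (Krtap8-1) of the mean of the other P27 arrays, with a median of 9.8%. On the first D5 array 26 of 37 genes were under the floor, against 8 on the second.

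The genes lie in clusters. In the mouse assembly GRCm38.p6, 20 of the 38 lie on chromosome 16 (88646824 to 89571183), 10 on chromosome 11 (99566027 to 99993994), 5 on chromosome 7 (142174532 to 142304503), 2 on chromosome 10 and 1 on chromosome 1. The chromosome 7 genes are the whole of subfamily 5, and the chromosome 16 genes hold all members of the high glycine-tyrosine class. Promoter windows of RefSeq, from 250 bases before to 50 bases after the start of transcription, were matched by gene identifier for 36 of the 38 genes. The TATA box, spelled TATAAA and read on the sense strand from 40 to 15 bases before the start, was in 21 of the 36 windows (58.3%), against 2.11% of all 32817 windows. On both strands and anywhere in the window it was in 29 (80.6%), against 13.6%. CTTTGA, a core of LEF1 and TCF sites, was in 10 of 36 (27.8%) against 16%, TTTATNA or TTTATNG, a motif of HOXC13, in 14 (38.9%) against 22.5%, and ACGC, the core read by FOXN1, in 9 (25.0%) against 55.3%, all on both strands. Where N is A, the motif of HOXC13 contains the complement of TATAAA, so that both can be read from the same bases. These matches describe the letters of the windows only. The windows of 4 genes that the results below turn on are shown, with TATAAA and CTTTGA of either strand in capitals: Krtap8-1 (chr16:89487903-89488202, minus strand), the first to come on, Krtap6-3 (chr16:89083774-89084073, plus strand), which was higher in mid catagen, Krtap19-4 (chr16:88885040-88885339, minus strand), which had the largest fall there, and Krtap5-3 (chr7:142201114-142201413, plus strand), the first to be lost.
Krtap8-1: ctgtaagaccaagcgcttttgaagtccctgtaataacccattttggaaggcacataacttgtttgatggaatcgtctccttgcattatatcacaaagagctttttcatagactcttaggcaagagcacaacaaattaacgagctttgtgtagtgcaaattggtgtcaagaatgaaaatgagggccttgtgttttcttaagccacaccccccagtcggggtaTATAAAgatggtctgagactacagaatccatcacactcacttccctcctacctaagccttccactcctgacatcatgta
Krtap6-3: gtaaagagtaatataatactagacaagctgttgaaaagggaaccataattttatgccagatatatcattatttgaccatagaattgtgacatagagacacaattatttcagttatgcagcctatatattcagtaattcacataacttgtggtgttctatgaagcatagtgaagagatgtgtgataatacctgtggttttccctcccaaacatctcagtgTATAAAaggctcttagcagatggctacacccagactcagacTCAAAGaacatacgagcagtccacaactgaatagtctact
Krtap19-4: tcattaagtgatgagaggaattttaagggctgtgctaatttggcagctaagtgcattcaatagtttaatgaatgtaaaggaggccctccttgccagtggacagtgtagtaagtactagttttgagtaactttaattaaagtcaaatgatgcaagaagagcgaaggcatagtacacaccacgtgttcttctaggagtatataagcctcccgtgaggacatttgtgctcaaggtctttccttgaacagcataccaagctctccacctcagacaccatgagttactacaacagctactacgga
Krtap5-3: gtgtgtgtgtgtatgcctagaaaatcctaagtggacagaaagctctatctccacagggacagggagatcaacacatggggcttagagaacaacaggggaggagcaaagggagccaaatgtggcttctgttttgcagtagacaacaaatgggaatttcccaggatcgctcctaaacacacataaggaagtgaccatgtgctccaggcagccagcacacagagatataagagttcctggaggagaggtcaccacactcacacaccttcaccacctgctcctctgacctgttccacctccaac

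In Krtap8-1 the TATA box began 29 bases before the start. In Krtap6-3 it began 31 bases before, and the complement of CTTTGA lay 10 bases after the start. Krtap19-4 and Krtap5-3 held neither TATAAA nor CTTTGA. The window of Krtap19-4 does hold the similar letters tatataag, and that of Krtap5-3 holds gatataag, which were not counted. By class, TATAAA at this place was found in 9 of 12 ultra-high sulfur, 4 of 9 high sulfur and 6 of 13 high glycine-tyrosine windows. It was also in the windows of both genes that were not classed. These counts hold for the spelling TATAAA only, and other spellings of a TATA box were not searched.

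Over the natural cycle the Krtap genes were low against their highest means in telogen and at P23, came on between P25 and P29 and fell between P41 and P44. In telogen most were still above the floor, with 2, 2 and 8 of 37 genes under it on the P44 arrays. As a share of the highest time-point mean of each gene, the median over the 37 genes was 0.24% at P23, 3.22% at P25, 49.9% at P27, 47.2% at P41 and 0.80% at P44. The mean first reached 10% of the highest at P25 in 1 gene, Krtap8-1 (13.5%), and at P27 in the other 36. It first reached 50% at P27 in 18 genes and at P29 in 19. By class, 10 of 14 high glycine-tyrosine genes were at 50% by P27, against 3 of 9 high sulfur and 4 of 12 ultra-high sulfur genes. This class order was not tested, and with the median over arrays in place of the mean 12 of 37 genes changed the time of 50%. The highest mean was at P29 in 26 genes, at P37 in 1 (Krtap7-1), at P39 in 9 (Krtap3-1, all 5 genes of subfamily 4, Krtap9-3, Krtap11-1 and Krtap26-1) and at P41 in 1 (Krtap6-3). With the median over arrays the time of the peak changed in 7 of 37 genes. It also differed in 1 of 5 second probe sets.

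**Figure D1:**
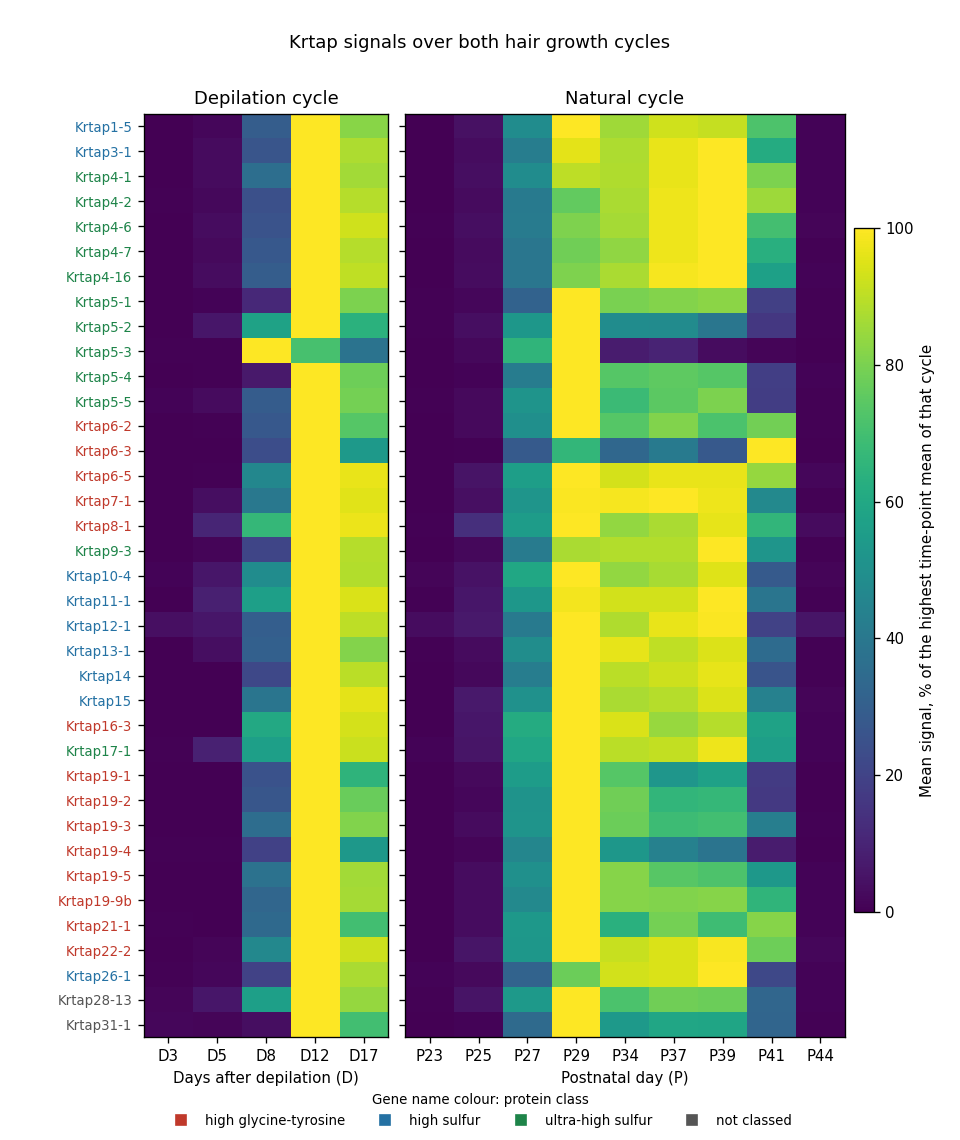
Mean signal of each of the 37 kept Krtap genes at each time point, as a percentage of the highest time-point mean of the gene in that cycle (colour scale 0 to 100), with the depilation cycle (D3 to D17) left and the natural cycle (P23 to P44) right. Genes run down by subfamily and gene names are coloured by protein class. The block of high values runs from D12 to D17 and from P29 to P39, with Krtap5-3 lost early and Krtap6-3 highest at P41.

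Few genes were called in early anagen. No Krtap gene differed between early anagen (P23 and P25) and telogen (P44), with 0 of 37 at an adjusted p under 0.05 in limma, and 0 at an unadjusted p under 0.05, while 26.8% of all 26988 probe sets tested were called. The median log2 difference was 0.50. The early anagen arrays were themselves far apart. Krtap8-1, a high glycine-tyrosine protein, had signals of 2649 and 7282 at P25 against 95 and 392.5 at P23, a log2 difference of 4.51 ± 0.93 (SE, adjusted p = 0.15). In telogen its signals were 1772, 1309 and 331, which overlapped those of early anagen. P25 against P23 called 2 of 37 genes higher, where the background was 0.0148% of probe sets, and 28 had an unadjusted p under 0.05. The median log2 difference there was 3.44. Krtap15, a high sulfur protein, had 1176 and 3273 at P25 against 29.6 and 53.1 at P23, a log2 difference of at least 5.52 (adjusted p = 0.0044). Krtap16-3, a high glycine-tyrosine protein, had 654 and 2358 at P25 against 19.9 and 23.6 at P23, a log2 difference of at least 5.17 (adjusted p = 0.014). Both arrays of P25 lay above both of P23 in each of these, as they did in 36 of the 37 genes, against 13.4% of all probe sets. Without either P23 array 0 genes were called, and without P25 replicate 2 the count was 3.

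Mid anagen brought the family on. At P27, 34 of 37 genes were higher than in early anagen, where 10.4% of all probe sets were called higher. The median log2 difference was 5.07 (from 2.67 to at least 5.95). Krtap8-1, Krtap15 and Krtap31-1 were not called, with adjusted p of 0.062, 0.058 and 0.060, and 37 of 37 had an unadjusted p under 0.05. Among the chosen probe sets the smallest difference was that of Krtap12-1, a high sulfur protein whose human counterparts belong to the cuticle. It had 2325, 3826 and 406 at P27 against 155, 180, 309 and 396 in early anagen (2.67 ± 0.74 SE, adjusted p = 0.043). Krtap26-1, another gene of this kind, had 5271, 6530 and 602 at P27 against 148, 98.2, 195 and 465 (3.85 ± 0.88, adjusted p = 0.024). The second probe set of Krtap12-1 had 2886, 4232 and 209 at P27 against 8.0, 35.1, 112 and 195 in early anagen. It was lower in early anagen than the chosen probe set, so the small difference of Krtap12-1 depends on the probe set. The largest were those of Krtap19-2, of the high glycine-tyrosine class, with at least 5.95 (adjusted p = 0.038), and Krtap16-3, with at least 5.76 (adjusted p = 0.043). Krtap19-2 had 23303, 27068 and 800 at P27 against 1, 14, 281 and 820 in early anagen, so that its P27 replicate 3 lay within the range of early anagen. All P27 arrays lay above all of early anagen in 29 of the 37 genes, against 17.4% of all probe sets. The calls lay close to the threshold. They came to 35 without P27 replicate 3, 0 without either of the others, 1 and 3 without P23 replicates 1 and 2, and 19 without P25 replicate 1. They came to 0 with a one-way ANOVA, with no filter on low values or with P25 alone as early anagen. This ANOVA used the floored log2 values and the adjustment over all probe sets. The study's own ANOVA used another transformation and threshold and was not rerun.

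Markers moved with P27 replicate 3. Its summed hair shaft keratin signal was 30229, against 148882 and 160130 on the other P27 arrays, and its sum over 9 inner root sheath genes was 108597 against 154698 and 162519, while the sum over dividing cell genes was 19333 against 17194 and 17071. Krtap8-1 stood nearest to its replicates on this array, with 10684 against 25258 and 24964, and Krtap31-1 farthest, with 107 against 2279 and 8803. The order of the genes in percent of their highest mean on this array was close to that of the second P25 array (Spearman rho 0.91 across 37 genes, which are not independent). Sex was a covariate in an alternative fit of the contrasts. The part of sex or of the stage of the mouse in the difference of this array was not tested.

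**Figure D2:**
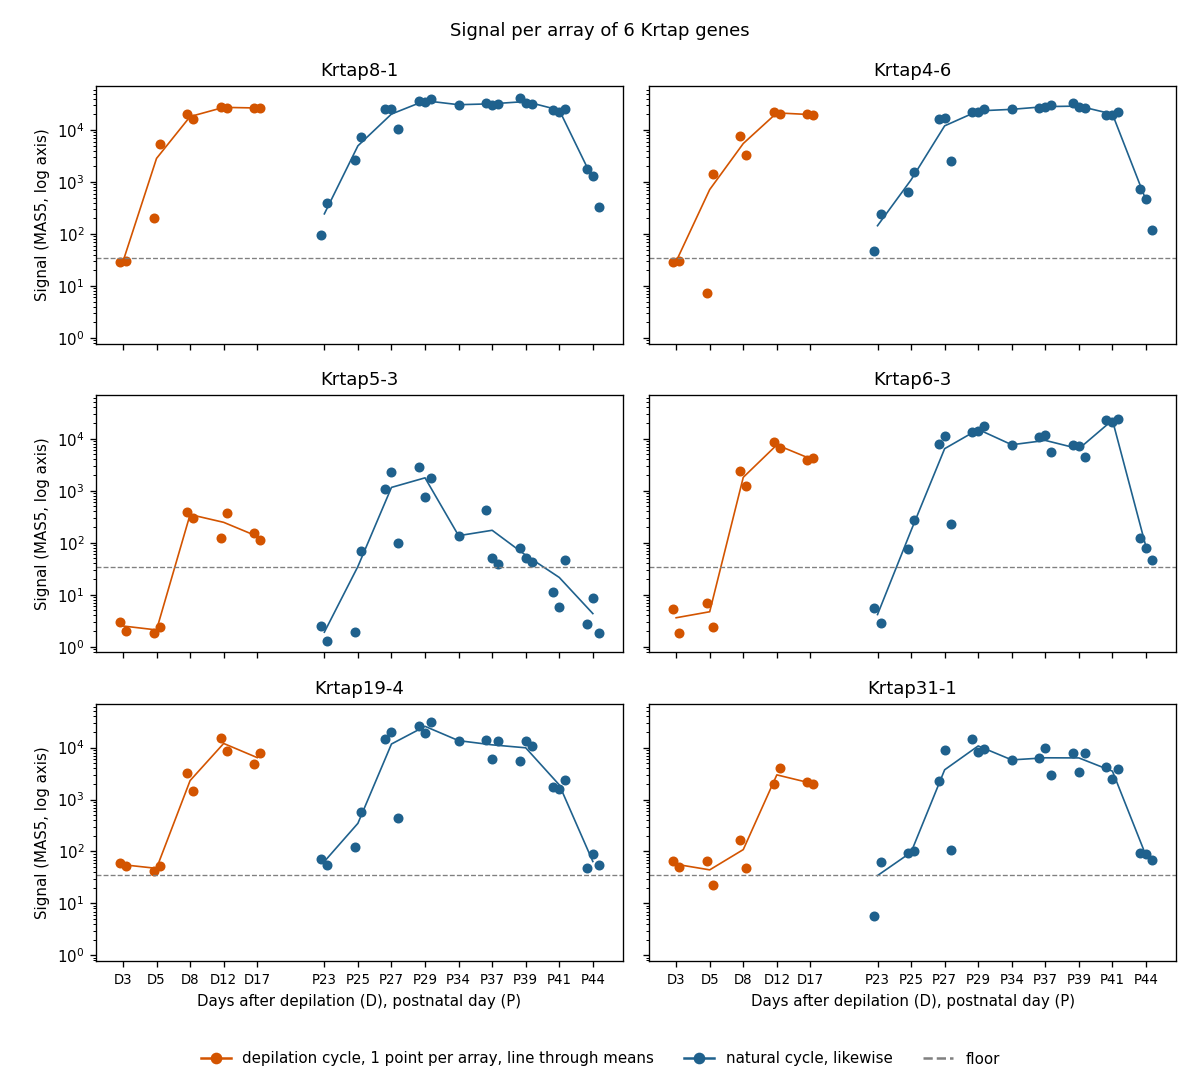
Signal per array (log axis) of Krtap8-1, Krtap4-6, Krtap5-3, Krtap6-3, Krtap19-4 and Krtap31-1 at D3 to D17 (left) and P23 to P44 (right), 1 point per array, with lines through time-point means and a dashed line at the floor of 34.6. Krtap8-1 lies at 2649 and 7282 at P25, Krtap5-3 between 38.8 and 431 in early catagen against 766 to 2830 at P29, Krtap6-3 between 21483 and 24374 at P41, and Krtap31-1 at 170 and 47.5 at D8.

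Between P27, P29 and early catagen no call was made in limma. Late against mid anagen gave positive differences in all 37 genes (median 1.61, from 0.95 for Krtap8-1 to 3.02 for Krtap31-1), 0 of them called, 1 with an unadjusted p under 0.05 and 0% of all probe sets called. Krtap31-1, which was not classed, had 14432, 8230 and 9550 at P29 against 2279, 8803 and 107 at P27, with an SE of 1.48. Early catagen (P37 and P39) against late anagen gave 0 calls as well, at a background of 0%, with 18 of 37 at an unadjusted p under 0.05 and a median of -0.12 (1 call without P37 replicate 1). As a share of late anagen, the early catagen mean ranged from 6.5% (Krtap5-3) to 130.0% (Krtap4-2), and 8 genes were over 100%. P39 against P37 gave 0 calls of 37 (background 0.0111%), with 0 at an unadjusted p under 0.05.

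Subfamilies 4 and 5, both of the ultra-high sulfur class, had different values from P29 on. The highest gene of subfamily 4, Krtap4-6, had 26028, 27922 and 30673 at P37 and 33277, 27326 and 26089 at P39, against 22225, 22068 and 25705 at P29, and all early catagen arrays lay above all those of late anagen (0.29 ± 0.11, adjusted p = 0.32). All 5 genes of this subfamily had early catagen means of 109.2% to 130.0% of late anagen. In subfamily 5 they were at 6.5% to 82.2%. Krtap5-2, the highest gene there, had 7710, 4797 and 5049 at P37 and 4797, 4563 and 4897 at P39, against 16827, 8976 and 10451 at P29 (-1.16 ± 0.22, adjusted p = 0.15). Krtap5-3 had 431, 50.7 and 38.8 at P37 and 78.9, 50.9 and 42.8 at P39, against 2830, 766 and 1722 at P29 (-4.42 ± 0.74, adjusted p = 0.11). Its P34 array had 137, which made it the only gene under 10% of its highest mean by then. Neither difference was called, and the difference between the subfamilies was not tested. Genes such as Krtap5-3, Krtap6-3 and Krtap19-4, and members of subfamilies 4, 5, 6 and 19 beyond the highest of each, are named here because of their values and were chosen after these were seen.

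Most of the family fell in mid catagen. At P41, 29 of 37 Krtap genes were lower and 1 was higher than in early catagen, where 17.9% and 17.4% of all probe sets were lower and higher. The median log2 difference was -0.80, with a range from -2.39 to 1.62. All 9 high sulfur genes fell (median -1.44), 10 of 12 ultra-high sulfur genes fell (median -0.84), and of 14 high glycine-tyrosine genes 9 fell and 1 rose (median -0.47). The median over all probe sets was -0.01. All P41 arrays lay below all of early catagen in 29 genes and above in 1, against 17.3% and 16.4% of all probe sets.

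The subfamilies whose human counterparts belong to the cuticle held 6 of the 10 largest falls, a grouping that was made after the values were seen. This group had 5 genes of subfamily 5 and 1 gene each of subfamilies 10, 12, 17 and 26, among the 37 kept. Krtap12-1 had 1481, 689 and 967 at P41 against 4639, 5410 and 5283 at P37 and 5895, 5595 and 4264 at P39 (-2.37 ± 0.21 SE, adjusted p = 0.00016). Its second probe set had 933, 565 and 945 at P41 and no early catagen signal under 4377. Krtap26-1 had 3291, 2011 and 3056 at P41 against 9851 to 14164 in early catagen (-2.20 ± 0.18, adjusted p = 0.00011), and Krtap10-4 had 2988, 2019 and 3089 against 6639 to 9354 (-1.69 ± 0.16, adjusted p = 0.00021). In subfamily 5, Krtap5-5, Krtap5-1 and Krtap5-4 fell by 2.14, 2.13 and 2.07 on the log2 scale and Krtap5-2 by 1.46, all past the threshold, while Krtap5-3 had already been near the floor. Krtap17-1 was an exception at -0.75 ± 0.11 (adjusted p = 0.0016), with P41 at 59.6% of early catagen. The high sulfur genes outside this group fell as well. Krtap14 stood at 27.7% of early catagen, Krtap13-1 at 37.9%, Krtap11-1 at 40.3%, Krtap15 at 47.8%, Krtap3-1 at 62.6% and Krtap1-5 at 78.2%. A difference between the cuticle subfamilies and the others was not tested.

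In subfamily 4, 4 of the 5 genes fell. The mid catagen means of all 5 were 57.4% to 86.6% of early catagen, with Krtap4-6 at 19449, 19363 and 21923 at P41 (-0.49 ± 0.11, adjusted p = 0.0085) and Krtap4-2 at -0.20 ± 0.12 (adjusted p = 0.20). Krtap1-5, a high sulfur protein of the cortex in human, had 22654, 22266 and 24769 at P41 against 26947 to 31854 in early catagen (-0.35 ± 0.09, adjusted p = 0.017). In subfamily 5 the means were 18.6% to 36.5%, and the difference between both subfamilies was not tested. The lowest share, that of Krtap5-3, rests on signals without the floor, with 2 of its P41 arrays under it.

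Within the high glycine-tyrosine class all 6 genes of subfamily 19 fell and none of the 3 genes of subfamily 6 did, a difference between subfamilies that was not tested. Krtap19-4 had the largest fall of all, with 1760, 1564 and 2408 at P41 against 14231, 6054 and 13512 at P37 and 5612, 13448 and 10581 at P39 (-2.39 ± 0.34, adjusted p = 0.0011). The other 5 genes of subfamily 19 were at 25.0% to 80.1% of early catagen. Krtap6-3 had 22731, 21483 and 24374 at P41 against 10585, 11820 and 5495 at P37 and 7693, 7129 and 4440 at P39, 290.9% of early catagen (1.62 ± 0.29, adjusted p = 0.0031). All 3 mid catagen arrays were also above the P29 arrays, which had 13775, 14380 and 17307. Its second probe set was dim but had the same order, with 264, 177 and 199 at P41 against 53.4 to 161.8 in early catagen. Krtap6-2 stood at 103.2% (0.05 ± 0.10, adjusted p = 0.74), Krtap6-5 at 87.0% (-0.20 ± 0.10, adjusted p = 0.14) and Krtap21-1 at 110.5% (0.14 ± 0.12, adjusted p = 0.37). In the fit of all 33 arrays Krtap6-3 was not called (adjusted p = 0.090), and the count of genes called was 9 in place of 30.

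**Figure D3:**
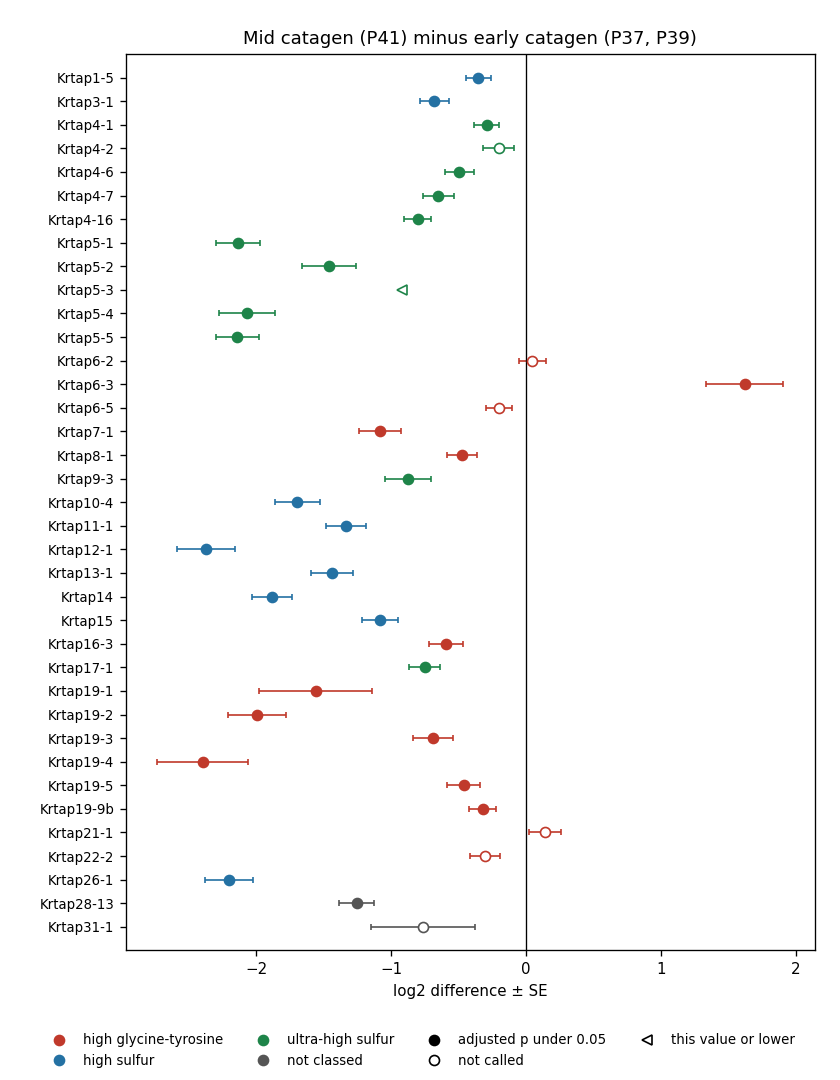
Log2 difference of mid catagen (P41, 3 arrays) minus early catagen (P37 and P39, 6 arrays) for each of the 37 kept Krtap genes, with bars of ± 1 SE, coloured by protein class, filled where the adjusted p was under 0.05 and with a triangle for a bound. Krtap6-3 is the only filled point right of 0, and Krtap19-4 and Krtap12-1 are farthest left.

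Loss was then nearly complete. At P44, 35 of 37 genes were lower than at P41, against 3.88% of all probe sets, with a median log2 difference of -5.99, and 37 of 37 were lower than at P29, against 21.6%, with a median of -7.03. Telogen lay below late anagen on all arrays in all 37, against 28.8% of all probe sets. Krtap6-3 had 123, 78.8 and 46.8 at P44, a difference from mid catagen of -8.21 ± 0.34 (adjusted p = 0.00033). Krtap12-1 had 468, 248 and 157 and was not called against mid catagen (-1.92 ± 0.45, adjusted p = 0.064). Its second probe set had 43.1, 45.7 and 63.5. Krtap5-3 had 2.7, 8.5 and 1.8, and was under the floor in both groups. Krtap8-1 kept the highest share of its peak apart from Krtap12-1, with signals of 1772, 1309 and 331 (3.10%). The mean fell under 50% of the highest at P34 in 2 genes (Krtap5-2 and Krtap5-3), at P37 in 1 (Krtap19-4), at P41 in 16 and at P44 in 18. It fell under 10% at P34 in Krtap5-3, at P41 in Krtap19-4 and at P44 in the other 35.

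After depilation no Krtap gene was called before D8. At D3 the arrays had 20 and 25 of 37 genes under the floor. D5 against D3 called 0 of 37 in limma (1 at an unadjusted p under 0.05), where 2.66% of probe sets were called, with a median log2 difference of 1.03. The 2 arrays of D5 differed. Krtap8-1 had 207 and 5482 at D5 against 28.4 and 30.4 at D3, at least 4.94 (adjusted p = 0.080). Krtap11-1, a high sulfur protein of the cortex in human, had 10.8 and 4025 at D5 against 10.7 and 6.6 at D3. Krtap17-1 had 88.4 and 2288 at D5 against 96.8 and 35.2 at D3. In these genes the first D5 array stood nearer to D3 than its replicate did. Without the first D5 array 22 genes were called, and without the second 1 was. That array had summed hair shaft keratin signals of 7301 against 25533 on the second, inner root sheath sums of 39339 against 85572, and muscle gene sums of 41907 against 16662, and their part in the result was not tested.

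On the second D5 array, the Krtap genes of chromosome 16 differed by position. This array and the stretch were chosen after the values were seen, and the pattern rests on 1 mouse, so it is a description only. The 14 genes in a row from Krtap14 to Krtap6-2 (88825291 to 89420111), which hold the subfamilies 14, 15, 19, 16, 22, 6 and 21, were at 2.31% or less of their highest depilation mean, and 6 of them were under the floor. The 5 genes on both sides were at 3.46% (Krtap26-1), 6.75% (Krtap13-1), 20.1% (Krtap8-1), 7.53% (Krtap7-1) and 17.5% (Krtap11-1). The 18 genes on other chromosomes were at 0.688% to 17.8%, with a median of 5.29% and 2 under the floor. Their low end thus lay within the range of the 14 genes, so that low shares were not confined to this stretch. On the second P25 array of the natural cycle the same 14 genes were at 1.17% to 10.1%, with a median of 4.65%, those on both sides at 3.59% to 19.9% and those on other chromosomes at 0.940% to 8.35%. Krtap15 and Krtap16-3, the genes called at P25, thus had 128 and 34.1 on the second D5 array, against 3273 and 2358 on the second P25 array, while Krtap11-1 had 4025 against 2211. By D8 the 14 genes were at 26.6% to 70.0% on the first array.

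**Figure D4:**
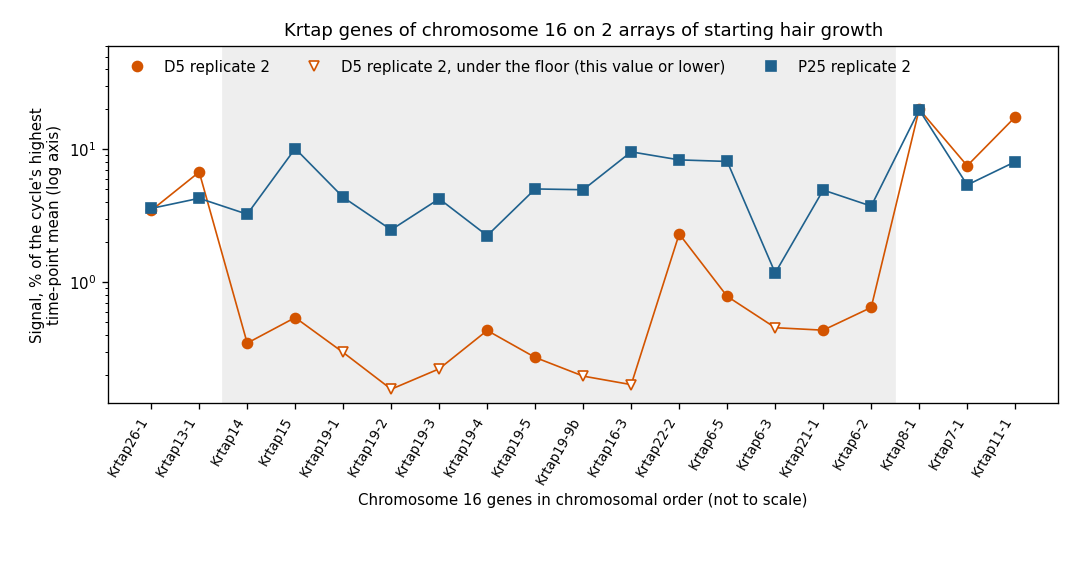
Signal of the 19 kept Krtap genes of chromosome 16 on D5 replicate 2 and P25 replicate 2, as a percentage of the highest time-point mean of the gene in that cycle (log axis), with genes in chromosomal order and open triangles for 6 signals under the floor, drawn at the share the floor gives (this value or lower). In the shaded row from Krtap14 to Krtap6-2 the D5 points lie at 2.31% or less, and the P25 points between 1.17% and 10.1%.

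In late anagen after depilation (D8 and D12) all 37 genes had an unadjusted p under 0.05 against D5, with a median log2 difference of at least 5.69. Of the 37, 21 were called higher than at D5, against 0.43% of all probe sets. By class these were 12 of 14 high glycine-tyrosine, 3 of 9 high sulfur and 5 of 12 ultra-high sulfur genes, and Krtap31-1. Krtap16-3 had 14329 and 10361 at D8 and 22065 and 18898 at D12, against 1.6 and 34.1 at D5, a difference of at least 8.83 (adjusted p = 1.2e-06). Krtap11-1 had 14322 and 11507 at D8 and 23326 and 22582 at D12, with at least 5.52 (adjusted p = 0.15). The spread between the D5 arrays entered each of these tests, and 35 genes were called without the second D5 array, which was the higher, and 36 in a fit of all 33 arrays.

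Within late anagen the genes were not all on by D8. The D8 mean was 29.8% of the highest mean in the median gene. It was 3.65% in Krtap31-1 and 6.76% in Krtap5-4, the only genes under 10%, and 50% or more in 7 genes (Krtap5-2, Krtap5-3, Krtap8-1, Krtap11-1, Krtap16-3, Krtap17-1 and Krtap28-13). The second probe set of Krtap16-3 reached 50% at D12 only, with 7396 and 4568 at D8 against 17994 and 12923 at D12. Of 5 second probe sets, 3 changed the time of 50% in this cycle. Krtap31-1 had 1989 and 3968 at D12 against 170 and 47.5 at D8. The highest mean was at D12 in 36 genes and at D8 in Krtap5-3, which had 396 and 302 at D8, 125 and 369 at D12 and 152 and 114 at D17. At D17 the means were 53.4% to 97.2% of D12, with a median of 86.6%. D17 against D8 and D12 gave 0 calls of 37 in limma, at a background of 0%, with 5 at an unadjusted p under 0.05.

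Set against the natural cycle, all tested Krtap genes were lower after depilation in mid anagen, and 6 were in late anagen. D5 against P27, both mid anagen by the design text, gave 37 of 37 lower, at a background of 14.5%, with a median log2 difference of -5.33. All D5 arrays lay below all P27 arrays in all 37 genes, P27 replicate 3 included, against 28.4% of all probe sets. Without the first D5 array 24 were called. In late anagen (D8 and D12 against P29) 6 of 37 were lower, against 15.9% of all probe sets, so that the share of members called was near the background. All 37 differences were negative, with a median of -1.38, and 18 had an unadjusted p under 0.05. All D8 and D12 arrays lay below all P29 arrays in 29 genes, against 18.6% of all probe sets. In early catagen (D17 against P37 and P39) 0 of 37 were called in limma, at a background of 15.3% called, with 0 at an unadjusted p under 0.05. The median was -0.52, and 1 of the 37 differences was positive. Both D17 arrays lay below all P37 and P39 arrays in 30 genes, against 19.5% of all probe sets.

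The genes called in late anagen were Krtap31-1, 4 of the 5 genes of subfamily 5, and Krtap19-4. Krtap31-1 had 170 and 47.5 at D8 and 1989 and 3968 at D12, against 14432, 8230 and 9550 at P29 (-4.38 ± 0.86 SE, adjusted p = 0.00074). Krtap5-1 had 992 and 691 at D8 and 7843 and 6793 at D12, against 12919, 10399 and 14265 at P29 (-2.34 ± 0.62, adjusted p = 0.0078). Krtap5-3 was at -2.51 ± 0.78 (adjusted p = 0.021), Krtap5-4 at -2.35 ± 0.79 (adjusted p = 0.032), Krtap5-5 at -1.87 ± 0.64 (adjusted p = 0.034) and Krtap19-4 at -2.34 ± 0.82 (adjusted p = 0.038). Krtap31-1 and Krtap5-1 were called under each of the 15 settings tried for this comparison, and the others under 6 to 11 of them. At D12 alone the depilation mean was 73.9% of P29 in the median gene, from 13.9% (Krtap5-3) and 27.7% (Krtap31-1) to 97.1% (Krtap26-1). Without P29 replicate 1, P29 replicate 3 or D8 replicate 2 the count was 2, and without P29 replicate 2 or either D12 array it was 3.

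**Figure D5:**
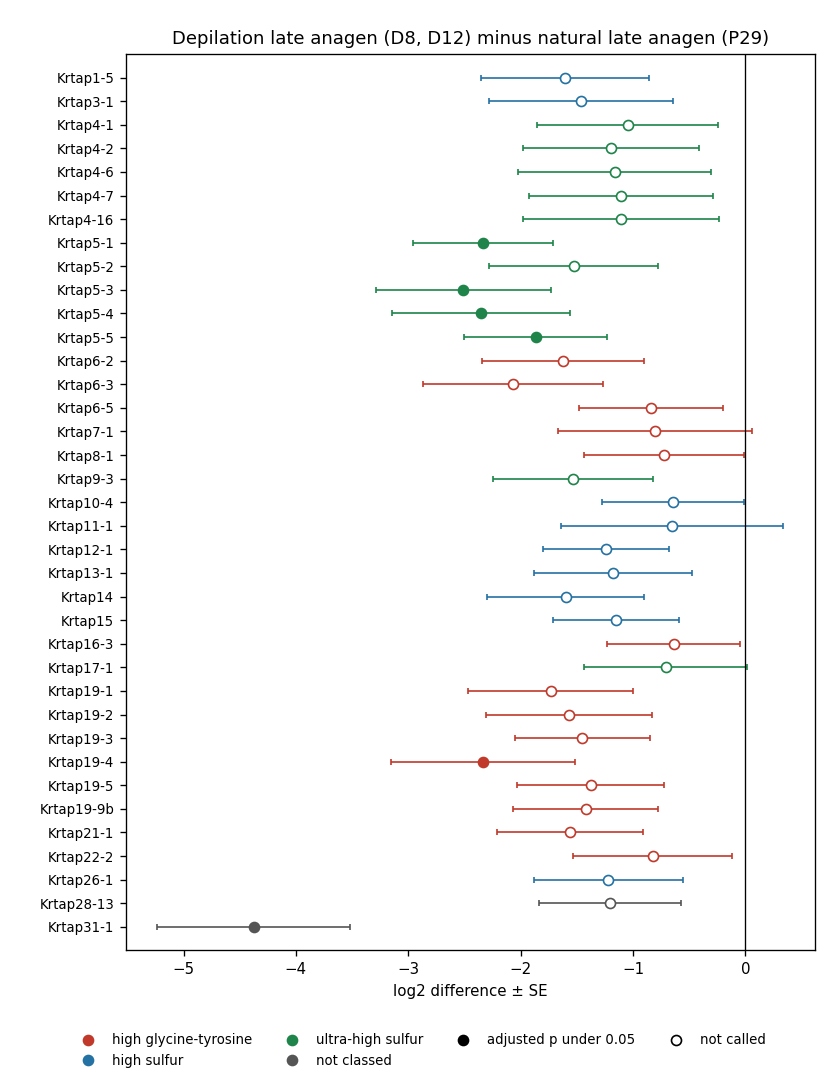
Log2 difference of late anagen after depilation (D8 and D12, 4 arrays) minus late anagen of the natural cycle (P29, 3 arrays) for the 37 kept Krtap genes, with bars of ± 1 SE, coloured by protein class and filled where the adjusted p was under 0.05. All points lie left of 0, with Krtap31-1 at -4.38 and 6 points filled.

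The growth change, which sets the step from early to late anagen after depilation against that of the natural cycle, differed in 2 of 37 genes, 1 higher (background 10.6%) and 1 lower (background 7.66%). Krtap8-1 had 28.4 and 30.4 at D3 and 16082 to 28030 at D8 and D12 after depilation, against 95, 392.5, 2649 and 7282 at P23 and P25 and 34121 to 40205 at P29. Its change was larger after depilation by at least 4.01 (adjusted p = 0.014). In Krtap31-1 the change was smaller, with -4.12 or lower (adjusted p = 0.031). Without D3 replicate 1 neither was called, and 1 was without D3 replicate 2, P23 replicate 1, P29 replicate 1 or 3, D8 replicate 2 or D12 replicate 1.

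The other genes of hair shaft formation were taken as lists. Of 12 hair shaft keratins kept (16 listed), which form the filaments that the Krtap proteins join, 11 were higher in mid than in early anagen (10.4% of all probe sets), 10 were lower (17.9%) and 1 higher (17.4%) in mid than in early catagen, and 12 were lower in telogen than in mid catagen (3.88%). Krt35, a keratin of the lower hair shaft in human, was on before the Krtap genes. It had 1643, 3514, 1499 and 4134 in early anagen against 92.8, 73.5 and 60.7 in telogen (5.04 ± 0.40 SE, adjusted p = 0.00051), and 5748 and 7551 at D5 against 51.3 and 15.8 at D3 (at least 7.29, adjusted p = 2.3e-05). Krt34, a keratin of the cortex, had 8.8 and 1265 at D5. Krt84 was the keratin higher in mid catagen, with 2472, 3680 and 5338 at P41 against 1557 to 2742 in early catagen (0.82 ± 0.25, adjusted p = 0.031), and it was also the keratin lower in late anagen after depilation (-2.42 ± 0.55, adjusted p = 0.0026).

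Of 17 transcription factors of the hair matrix, 7 were higher in early anagen than in telogen and 2 lower. There 26.8% of all probe sets were called in either direction. At D5, 7 were higher than at D3, where 2.66% of all probe sets were called in either direction and no Krtap gene was. Hoxc13, a homeobox factor that acts on hair keratin and Krtap genes in the mouse, had 1016 and 1085 at D5 against 78.2 and 67.0 at D3 (3.86 ± 0.18 SE, adjusted p = 0.00020). Lef1, the nuclear factor of Wnt signalling, had 1372 and 1144 at D5 against 85.0 and 124 at D3 (3.61 ± 0.35, adjusted p = 0.0049). Both D5 arrays were thus high in these factors, also the first, on which most Krtap genes were under the floor. Foxn1, a factor needed for the hair shaft in the mouse, had 250 and 553 at D5 against 80.1 and 202 at D3 and was not called (1.55 ± 0.47, adjusted p = 0.13). In mid catagen 10 of the 17 were lower than in early catagen (17.9% of all probe sets) and 0 higher, with Lef1 at -3.0 ± 0.26 and Hoxc13 at -0.93 ± 0.11. Over all 33 arrays, genes without a Krtap symbol were ranked by likeness of profile to the mean of the Krtap genes. The first were the hair keratins Krt81 (Pearson r 0.994) and Krt86 (0.992), the genes Gm11559 (0.991) and Gm11563 (0.990), and Krt34 (0.989). This is a description over arrays that share time points. The symbol rule can leave out genes of the family. The paper lists the probe sets of Gm10229 (0.987) and Gm10228 (0.981), also near this profile, as Krtap6-1. Whether Gm11559 and Gm11563 belong to the family was not checked.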

How the data were processed

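RNA of whole dorsal skin was hybridised to 33 one-colour Affymetrix arrays. The deposited values are intensities, linear MAS5 signals that, per the labels and the processing notes of the submitters, the authors scaled array by array. Their trimmed means were 496.6 to 498.2 on all arrays. The version of MAS5 is not given in the sources used here. Signals were floored, log2 transformed and tested with limma 3.58.1 (lmFit, eBayes) in R 4.3.3 over the 26988 of 45037 probe sets that passed the filter, with Benjamini-Hochberg adjustment over all of these at 0.05. All p-values are two-sided. Contrasts of natural phases used only the arrays compared, those of the depilation cycle its 10 arrays, and contrasts of single time points or between cycles all 33 arrays with 1 mean per time point. Phases followed the design text of the series, since the labels of some samples name an earlier phase. Gene symbols came from the platform annotation (34945 probe sets with 1 symbol, 932 with several, 9160 with none, and no symbol changed among 34741 matched by Entrez identifier), and a further 6 Krtap probe sets with several symbols were left out. Probe sets that may cross-hybridise were used for 3 genes (Krtap5-1, Krtap11-1 and Krtap16-3), and close members of a subfamily may share signal. Protein classes follow textbook naming of the subfamilies, in place of the planned amino acid shares, because protein sequences were not used here. Genes named were the highest of each subfamily, the extremes of mid against early anagen, the nearest profiles without a Krtap symbol and up to 4 examples per list. Others, with Krt34, Krt84 and Foxn1, were chosen after their values were seen. Members and lists were chosen with earlier results of these data known. The fits were tested on simulated data. The number of arrays, 1 to 3 per time point, limits the precision. Alternatives were another floor, no filter, quantile normalization, another probe set rule, a joint fit and a one-way ANOVA on the floored log2 values with the same adjustment. Further alternatives were sex as a covariate, a block for replicate number and leaving out each array.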

Additional observations from a re-analysis of the deposited data

Results flagged for a closer look

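Named genes and the mean of the family were checked for a single array far from the rest, in 72 checks. These covered early anagen, early catagen and late anagen after depilation, the phases with 4 or more arrays. A single array stood apart in 5 checks, all of them among the 6 early catagen arrays and none in the other phases. Chance alone would pick out about 1 in 20 checks. P39 replicate 1 was high in Krtap8-1 (41150, with the next array at 33550), in Krtap3-1 (32300, next 28040) and in Krtap22-2 (37630, next 30710). P37 replicate 1 was high in Krtap5-2 (7710, next 5049) and low in Krtap10-4 (6639, next 8566). The growth change differed between the cycles in 2 of 37 genes by the interaction contrast in limma, a smaller share than among all probe sets (10.6% higher and 7.66% lower), Krtap8-1 with at least 4.01 (adjusted p = 0.014) and Krtap31-1 with -4.12 or lower (adjusted p = 0.031), as depilation minus natural.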

How the results depend on the processing

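Counts below are Krtap genes called of 37, and no count changed direction. For mid against early anagen (34), the count was 5 with the floor at the 50th percentile (127.1). It was 0 with no filter, with the one-way ANOVA on the floored log2 values or with P25 alone. With P25 alone, early anagen against telogen (0) gave 2. In the joint fit of all 33 arrays, mid against early catagen (30) gave 9, D8 and D12 against D5 (21) gave 36, and D5 against D3, late against mid anagen and early catagen against late anagen (0 each) gave 1 each. For P25 against P23 (2), the floor at the 50th percentile or leaving out cross-hybridising probe sets gave 1. For the growth change (2), the floor at the 10th percentile (8.8) gave 4, and the floor at the 50th percentile, no filter or quantile normalization gave 1 each. For D8 and D12 against P29 (6), no filter gave 3. The causes were not tested. Leaving out 1 array gave 0 to 35 for mid against early anagen, 24 to 30 for mid against early catagen, 33 to 36 for telogen against mid catagen, 0 to 1 for early catagen against late anagen, 0 to 22 for D5 against D3, 15 to 35 for D8 and D12 against D5, 0 to 3 for P25 against P23, 24 to 37 for D5 against P27, 2 to 5 for D8 and D12 against P29 and 0 to 2 for the growth change. Among the values of named genes under these alternatives, 1754 kept their side of the threshold and 283 lost the call. With sex as a covariate, 111 kept it and 1 lost the call. The replicate numbers did not pair the mice (deviations of same-numbered arrays had a median r of 0.0039 over 171 pairs, others -0.0027 over 300), and with replicate number as a block P25 against P23 gave 4 and D8 and D12 against P29 gave 13, with other counts within 1.5 times. Low genes near the floor, such as Krtap5-3 at P41 and P44, have bounds at most.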
